A study of Mus musculus with 40 samples.

Results

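Cocaine self-administration was set against saline over both times studied, 24 h and approximately 1 month after the last session, to ask which RNAs bound to ribosomes in Drd1 neurons of the mouse accumbens differ after cocaine whatever the time. The comparison took 36 of the 40 libraries in the series. They comprised 9 saline libraries (4 at 24 h and 5 at 1 month) and 27 cocaine libraries (13 at 24 h and 14 at 1 month). The cocaine libraries joined those labelled escalating (5 and 4) with those labelled nonescalating (8 and 10). All libraries came from adult mice carrying the Drd1::EGFP-Rpl10a transgene (line CP73, made on an FVB/N-Swiss Webster background and bred to C57BL/6 for 9 or more generations), saline controls included. Saline or cocaine had been taken by intravenous self-administration under long access. Polysomes were pulled down with antibodies against EGFP, so the values describe RNA held on tagged ribosomes and there was no library of the unpurified tissue to compare them with. The transgene follows the Drd1 regulatory sequence, so it marks cells by promoter activity, not by an independent test of cell identity.

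Medium spiny neurons are the output neurons of the accumbens and fall into a class carrying the dopamine receptor Drd1, which also makes dynorphin and substance P, and a class carrying Drd2, which also makes enkephalin. Dopamine released by cocaine stimulates the Drd1 receptor, raises cAMP and ERK signalling and induces immediate early genes such as Fosb, Arc and Egr1. Longer cocaine experience is known to alter glutamate receptors, potassium channels and dendritic spines in these neurons. Translating ribosome affinity purification (TRAP) reads this in one cell class, because the ribosomal protein Rpl10a is tagged with EGFP in that class alone.

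No gene passed an adjusted p of 0.05 between cocaine and saline (0% of 15410 genes tested, edgeR quasi-likelihood test with time as a block). At an unadjusted p under 0.05 there were 1255 genes (8.14%), where 770 would be expected by chance if no gene differed. Of these, 633 (4.11%) were higher and 622 (4.04%) were lower in cocaine libraries. With replicate number as a block within each time, fewer genes were at that threshold, near the number expected by chance, as given with the processing checks. The smallest adjusted p was 0.1735, shared by the 7 genes of lowest p. DESeq2 on the same counts called 23 genes, 15 higher and 8 lower, and limma voom called 1, Hat1. The values below are therefore differences in level with their errors, none of which passed the main test.

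Total counts over genes ran from 9238296 to 33932469 in saline libraries and from 4973206 to 15197323 in cocaine libraries. Reads outside annotated features made up 18.7 to 40.2% of all reads. Levels are given as CPM, counts scaled to a common library size. Drd1 stood between 458 and 627 CPM in saline libraries and between 359 and 661 CPM in cocaine libraries. The rule for the comparison left out 4 libraries: saline libraries 1573 and 1574 at 24 h, nonescalating library 1582 at 24 h and nonescalating library 1595 at 1 month, which held 5168 counts. Library 1573 held 3772630 counts with 70.3% of reads outside features, and it had the highest astrocyte, oligodendrocyte, microglia and vascular marker levels and the lowest Drd1-class marker level of 39 libraries. Library 1574 held 7218630 counts with 51.1% outside features and ranked 2 of 39 for astrocyte and oligodendrocyte markers. Library 1582 held 9619996 counts with 40.4% outside features. It ranked 1 for medium spiny neuron, 30 for oligodendrocyte and 37 for Drd1-class markers. With 1573, 1574 and 1582 put back, 1270 genes had an unadjusted p under 0.05 and their split became 421 higher and 849 lower, and 1 gene, A930011O12Rik, passed (log2 difference of -1.83, adjusted p = 0.0112 by edgeR). Of the medians of 39 gene lists, 15 turned sign with these libraries put back, and values over the 39 libraries are given below beside the results they moved most.

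The gene of lowest p was Hat1, the histone acetyltransferase that acetylates newly made histone H4 (mm10 chromosome 2, 71388958 to 71441622, plus strand). Its level in the saline libraries at 24 h was 47.0, 33.6, 29.8 and 87.0 CPM, and at 1 month 30.8, 42.9, 28.3, 22.7 and 29.6 CPM. Cocaine libraries ranged from 12.6 CPM through a median of 19.8 to 36.6 CPM at 24 h, and from 7.36 through 18.3 to 28.2 CPM at 1 month. The groups overlapped at both times, and 26 of 27 cocaine libraries lay below the saline median. The fitted log2 difference was -0.96 ± 0.20 (SE; p = 1.56e-05, adjusted p = 0.1735, edgeR), with -1.14 at 24 h alone and -0.79 at 1 month alone. It was -0.76 without saline library 1575, the highest of the saline libraries.

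Slitrk4, a neuronal transmembrane protein of the Slitrk synaptic adhesion family (mm10 chromosome X, 64264885 to 64276996, minus strand), differed alike at the 2 times. Saline libraries held 98.0, 67.7, 68.1 and 96.4 CPM at 24 h and 81.9, 104, 97.2, 55.0 and 71.1 CPM at 1 month. In cocaine libraries Slitrk4 ran from 27.6 through 53.2 to 74.4 CPM at 24 h and from 34.5 through 49.1 to 82.1 CPM at 1 month. Here too 26 of 27 cocaine libraries were below the saline median, and no single saline library stood apart. The log2 difference of Slitrk4 was -0.66 ± 0.14 (adjusted p = 0.1735, edgeR), and it was -0.66 at each time fitted alone.

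Sod1, the cytosolic copper-zinc superoxide dismutase that removes superoxide (mm10 chromosome 16, 90220754 to 90226329, plus strand, overlapping Scaf4), had saline levels of 443, 411, 356 and 519 CPM at 24 h and 663, 418, 414, 355 and 361 CPM at 1 month. Cocaine libraries ranged from 291 through 311 to 393 CPM at 24 h and from 289 through 350 to 427 CPM at 1 month. Saline library 1590 was the one high value at 1 month, and 26 of 27 cocaine libraries lay below the saline median. The Sod1 difference was -0.36 ± 0.083 on the log2 scale (adjusted p = 0.1735, edgeR) and -0.28 without library 1590. With 39 libraries, it was -0.20 (unadjusted p = 0.0726).

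Car12, a membrane carbonic anhydrase (mm10 chromosome 9, 66713686 to 66766845, plus strand), rested more on 1 library. Its saline levels were 171, 178, 117 and 541 CPM at 24 h and 213, 261, 169, 156 and 126 CPM at 1 month, the value of 541 CPM belonging to library 1575. Cocaine libraries held 91.9 to 183 CPM with a median of 121 CPM at 24 h, and 82.8 to 199 CPM with a median of 137 CPM at 1 month. The log2 difference was -0.67 ± 0.15 with all 36 libraries and -0.35 without library 1575. Atxn7l1, a relative of the SAGA complex subunit Atxn7, followed the same pattern, with 302 CPM in library 1575 against 64.7 to 173 CPM in the other saline libraries and a log2 difference of -0.75 ± 0.17 that became -0.44 without it.

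Ctdspl, a small phosphatase of the RNA polymerase II tail (mm10 chromosome 9, 118926453 to 119043998, plus strand, host of Mir26a-1), was the only gene among the 20 of lowest p that was higher in cocaine libraries and detected in all libraries. It stood at 40.5, 49.0, 53.0 and 40.4 CPM in saline libraries at 24 h and at 31.4, 62.3, 36.4, 49.0 and 42.5 CPM at 1 month. Cocaine libraries held 41.5 to 102 CPM with a median of 62.5 CPM at 24 h and 44.5 to 116 CPM with a median of 62.4 CPM at 1 month. All but 1 of 27 cocaine libraries lay above the saline median. The log2 difference was 0.58 ± 0.16 (adjusted p = 0.3152, edgeR), 0.52 at 24 h and 0.63 at 1 month.

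**Figure D1:**
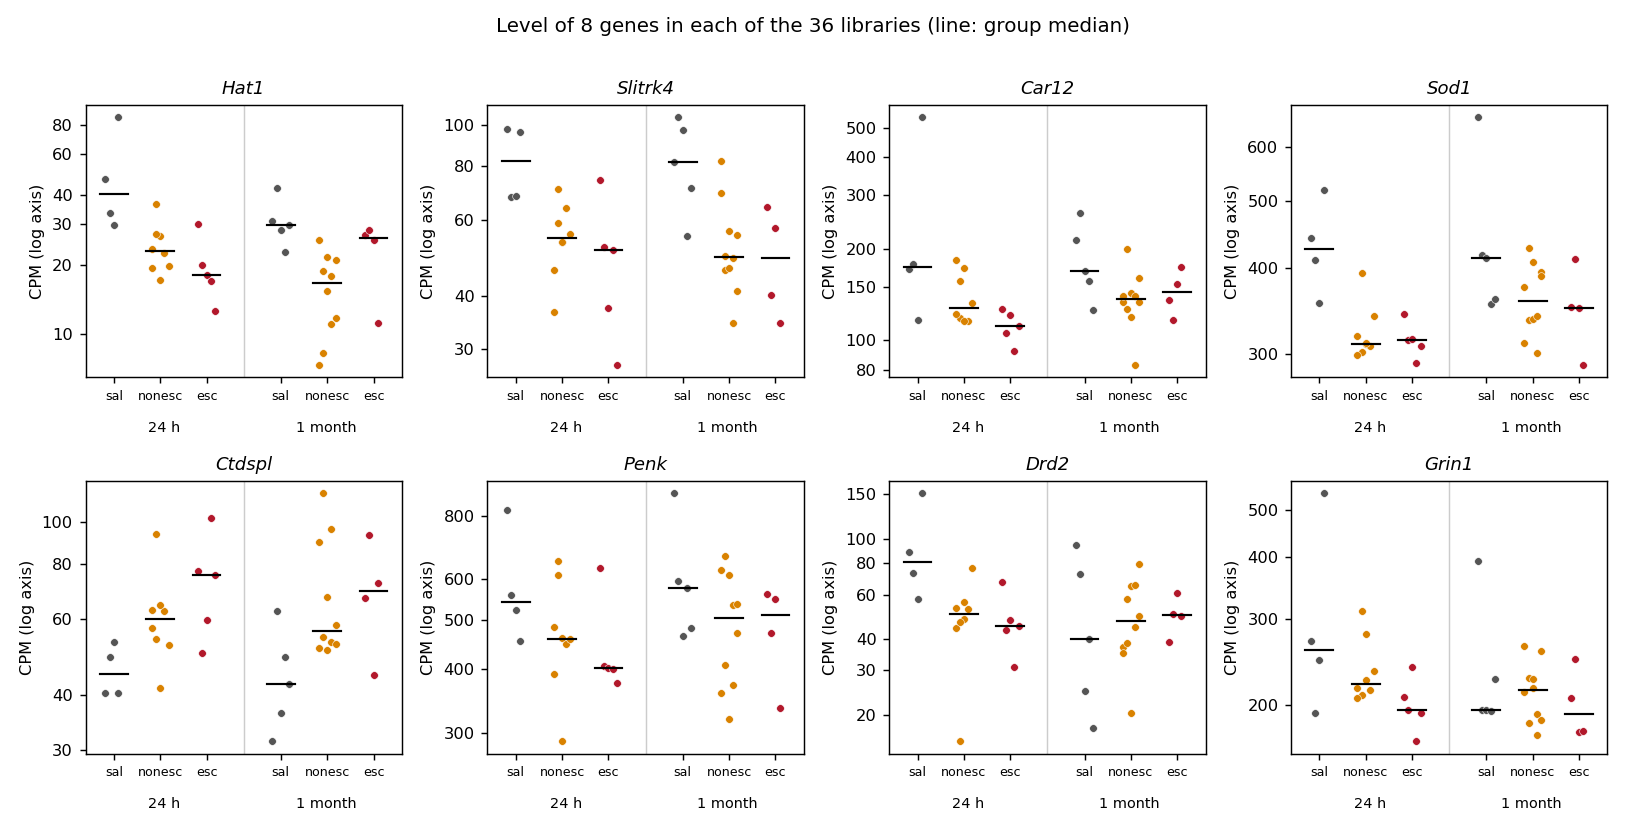
Level of 8 genes (CPM, log axis) in each of the 36 libraries, by group (sal, saline; nonesc, nonescalating cocaine; esc, escalating cocaine) at 24 h and 1 month; points are libraries and lines group medians. Hat1, Slitrk4 and Sod1 are lower and Ctdspl higher in most cocaine libraries at both times, while the high point of Car12 (541 CPM) and of Grin1 (540 CPM) at 24 h is saline library 1575.

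Among the other lower genes of these 20, Dctd, which deaminates dCMP, had its lowest saline value in library 1575. Its saline levels were 17.6, 10.9, 10.9 and 3.31 CPM at 24 h and 62.5, 17.3, 14.5, 8.32 and 8.77 CPM at 1 month, against medians of 3.52 and 7.25 CPM in cocaine libraries (log2 difference of -1.49 ± 0.36). Vstm5, a membrane protein of the immunoglobulin superfamily, was uneven among saline libraries, from 7.64 to 76.8 CPM, and had cocaine medians of 13.4 and 11.1 CPM (log2 difference of -1.19 ± 0.29). Abcb8, a mitochondrial ABC transporter, differed by -0.80 ± 0.20 and Fam204a by -0.61 ± 0.16. Over the 39 libraries Fam204a stood at -0.30.

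The lower transcripts, AK154190, 4930469G21Rik and Eid3, were at or near 0 in many libraries of both arms. AK154190 reached 26.97 CPM in saline library 1575 and 7.98 CPM in library 1591 but was at 0 in 5 of the 9 saline libraries. For 4930469G21Rik the highest cocaine value was 1.07 CPM, against 27.1 CPM in library 1575. AI450353 and Ogfod3 were also highest in library 1575, at 34.8 and 36.1 CPM, and their log2 differences of -2.95 and -2.11 became -1.58 and -1.08 without it.

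The remaining higher transcripts were absent or nearly absent from the 9 saline libraries compared, so no fold over the 36 libraries is given for them. Rgl3, which encodes an exchange factor for Ral GTPases, had no count in any saline library and reached 2.33 CPM at 24 h and 6.87 CPM at 1 month, with no count in 5 and 6 cocaine libraries. AK135648 was without a count in all saline libraries and in 5 and 9 cocaine libraries. Slco2a1, a prostaglandin transporter, had no count in saline libraries, none in 7 and 6 cocaine libraries, and a highest value of 14.2 CPM. Gm12504, annotated as a processed pseudogene, had 0.083 CPM in 1 saline library and up to 7.22 and 9.89 CPM in cocaine libraries. Levels this low rest on few reads a library. Over the 39 libraries the log2 differences of Rgl3 and Gm12504 were only 1.33 and 1.27 (unadjusted p = 0.313 and 0.355, edgeR). Those of Slco2a1 and AK135648 were 4.61 and 6.64.

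Saline library 1575 was the highest saline library for 9 of the 15 lower genes among the 20, which is 60% of them. It was the highest for 34.9% of the 622 lower genes at an unadjusted p under 0.05 and for 21.6% of all genes tested. Of the 633 higher genes, 49.9% had the same lowest value in 2 or more saline libraries, as where several held no count, against 19.6% of all genes. Without library 1575, 811 genes were higher and 694 lower at an unadjusted p under 0.05, and without library 1590 the numbers were 562 and 519. No gene passed the adjusted threshold when any 1 of the 36 libraries was left out.

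Cocaine-responsive transcription has been linked to CREB, which binds the letters TGACGTCA, and to Fos and Jun family factors, which bind TGANTCA. Promoters of 250 bases before to 50 bases after the annotated start were therefore read from RefSeq (build GRCm38.p6) for the genes above. Windows were found for 9 of the 20 genes of lowest p (15 windows, some genes having several starts) and for 5 of 8 fixed genes of this pathway (7 windows). Neither motif, searched on both strands, was present in any of these 22 windows. The CREB motif was in 1.79% and the Fos and Jun motif in 7.81% of all 32851 promoters of the same length, and in 2.94% and 5.04% of the 13761 promoters of genes tested here. The windows of Hat1 (chr2:71389010-71389309), Car12 (chr9:66713436-66713735) and Sod1 (chr16:90220512-90220811), each on the plus strand, are shown as the lower genes named first above that have a window, with capitals from the annotated start on.
Hat1: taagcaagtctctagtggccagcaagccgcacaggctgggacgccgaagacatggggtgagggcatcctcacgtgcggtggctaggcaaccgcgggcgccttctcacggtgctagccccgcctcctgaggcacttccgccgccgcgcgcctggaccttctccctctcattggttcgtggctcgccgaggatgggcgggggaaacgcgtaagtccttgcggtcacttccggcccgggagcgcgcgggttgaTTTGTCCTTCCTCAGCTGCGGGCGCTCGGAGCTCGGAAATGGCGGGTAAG
Car12: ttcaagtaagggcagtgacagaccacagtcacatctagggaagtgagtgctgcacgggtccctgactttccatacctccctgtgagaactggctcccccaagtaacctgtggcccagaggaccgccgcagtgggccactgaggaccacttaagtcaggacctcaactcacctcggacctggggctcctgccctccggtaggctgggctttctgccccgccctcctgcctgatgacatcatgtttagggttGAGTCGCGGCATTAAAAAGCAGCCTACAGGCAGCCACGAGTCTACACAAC
Sod1: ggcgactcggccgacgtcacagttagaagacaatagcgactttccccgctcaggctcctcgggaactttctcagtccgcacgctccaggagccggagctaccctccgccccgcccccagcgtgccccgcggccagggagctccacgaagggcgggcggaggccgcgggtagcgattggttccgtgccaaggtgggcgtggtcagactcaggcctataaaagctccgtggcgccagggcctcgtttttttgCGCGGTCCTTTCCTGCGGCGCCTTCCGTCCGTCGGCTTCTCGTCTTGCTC
The search says only that these letters were not in these windows.

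Markers of the tagged neurons were then compared. The Drd1 difference was -0.12 ± 0.09 on the log2 scale (unadjusted p = 0.184), and Pdyn, the dynorphin precursor made by Drd1 neurons, differed by 0.18 ± 0.10 (unadjusted p = 0.0829). Tac1, the substance P precursor, differed by -0.08 ± 0.14. None of the 12 Drd1-class markers had an unadjusted p under 0.05, but 3 were lower at that threshold without library 1575 and 1 was higher over the 39 libraries. With 39 libraries, Drd1 stood at 0.053 and Tac1 at 0.13, the opposite direction to the values over 36.

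Of 11 Drd2-class markers, 6 were higher and 5 lower in cocaine libraries, with a median log2 difference of 0.098 and a difference in list level of 0.032 (exact permutation p = 0.856). The 2 at an unadjusted p under 0.05 (18.2%, beside 8.14% of all genes) were both lower, 1 of them without library 1575 and none without library 1590. Penk, the enkephalin precursor, was at 819, 559, 523 and 454 CPM in saline libraries at 24 h and at 885, 595, 465, 577 and 481 CPM at 1 month. Cocaine libraries held 289 to 652 CPM with a median of 448 CPM at 24 h and 319 to 666 CPM with a median of 503 CPM at 1 month, so the groups overlapped widely. The Penk difference was -0.32 ± 0.12 (unadjusted p = 0.0104, adjusted p = 0.449, edgeR), with -0.35 at 24 h and -0.30 at 1 month. It was -0.24 without library 1590 and -0.15 over the 39 libraries.

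Drd2, the receptor of the other class, did not share its difference between the times. Its saline levels were 89.0, 73.1, 57.5 and 151 CPM at 24 h and 94.7, 72.2, 25.0, 39.9 and 17.7 CPM at 1 month, against cocaine medians of 47.5 and 49.4 CPM. The log2 difference was -0.94 at 24 h and -0.01 at 1 month. The change between them had an unadjusted p of 0.0309 and an adjusted p of 0.705 (edgeR), where 6.68% of all genes had an unadjusted p under 0.05. Over both times it was -0.47 ± 0.21 (unadjusted p = 0.0331), -0.26 without library 1575 and -0.81 over the 39 libraries. These are shares of the RNA pulled down with tagged ribosomes from many cells at once, so fewer cells of a type and less RNA per cell cannot be told apart.

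Immediate early genes, which follow recent neuronal activity, had a median log2 difference of -0.045 over 20 members, beside 0.013 for all genes tested. Egr1 was the single member at an unadjusted p under 0.05 (5% of the list, beside 8.14% of all genes). It was not so without library 1575 or without library 1590. It stood at 673, 545, 430 and 936 CPM in saline libraries at 24 h and at 987, 661, 450, 502 and 547 CPM at 1 month, and its difference was -0.27 ± 0.13. Fosb, whose truncated product builds up in the accumbens under repeated cocaine, differed by -0.28 ± 0.21, and Arc, which acts in AMPA receptor uptake, by 0.12 ± 0.25. Fosb stood at -0.62 ± 0.26 for the escalating and -0.13 ± 0.22 for the nonescalating libraries against saline, and the difference between them had an unadjusted p of 0.0368. Among activity-induced effectors, 1 of 19 (5.26%), Rasgrp1, had an unadjusted p under 0.05, lower by 0.20.

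NMDA and metabotropic receptors for glutamate held more genes lower at an unadjusted p under 0.05 than the background, though not without library 1575. Of 16 NMDA and metabotropic receptor genes, 6 were lower at an unadjusted p under 0.05 (37.5% of the list, beside 4.04% of all genes), and the list median was -0.24. They were Grin1, the obligatory NMDA receptor subunit (-0.33 ± 0.12), Grin2b, a regulatory NMDA subunit (-0.27 ± 0.10), and the metabotropic receptors Grm7 (-0.42), Grm4 (-0.32), Grm3 (-0.29) and Grm5 (-0.22). Grin1 stood at 270, 192, 247 and 540 CPM in saline libraries at 24 h and at 392, 195, 196, 195 and 226 CPM at 1 month, against cocaine medians of 214 and 210 CPM. Only libraries 1575 and 1590 were clearly high, and the other 7 saline libraries lay within the cocaine range of 169 to 311 CPM. Without library 1575 no member of the list had an unadjusted p under 0.05, its median was -0.11 and Grin1 stood at -0.16. Without library 1590 there were 3 members, and over the 39 libraries 1.

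The other receptor and scaffold lists held a smaller share of such genes. At an unadjusted p under 0.05, 4.04% of all genes were lower and 8.14% differed in either direction. The shares were 4.17% for AMPA and kainate, 13% for GABA, 4.35% for scaffold and 13.5% for adhesion and matrix genes, all lower. Of 24 AMPA and kainate receptor genes 1 was lower at that threshold, Cacng3, an AMPA receptor auxiliary subunit (-0.31). That count was 3 without library 1575 and 0 without library 1590. Among 23 GABA genes there were 3, including the GABA-A subunit Gabrb2 (-0.28) and the GABA-B receptor Gabbr1 (-0.19), with 1 left without library 1590. The GABA list median of -0.091 became 0.047 over the 39 libraries. Of 23 postsynaptic scaffold genes 1 was lower, Sipa1l1, a spine Rap regulator (-0.23), and 2 without library 1575. Of 37 synaptic adhesion and perineuronal matrix genes 5 were lower, including the adhesion proteins Ncam1 (-0.34), Nlgn1 (-0.32), Nlgn3 (-0.23) and Cdh2 (-0.28) and the matrix proteoglycan Ncan (-0.31). That count was 8 without library 1575 and 1 without library 1590.

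Channel genes leaned lower with few members past the threshold. Of 37 potassium channel genes 28 were lower in cocaine libraries (75.7%, beside 48.3% of all genes tested). Unadjusted p was under 0.05 for 3 of them (8.11%, beside 8.14% of all genes, 4.04% lower). The share of lower genes varied with level. Of 8451 genes above a mean of 10 CPM, 2528 were lower and 1943 higher at both times. Of all 13536 genes fitted at both times, 3438 were lower and 3791 higher at both. Kcnc1, a fast voltage-gated potassium channel, was at 214, 169, 113 and 309 CPM in saline libraries at 24 h and at 328, 138, 72.2, 123 and 94.5 CPM at 1 month. Cocaine medians of Kcnc1 were 112 and 110 CPM, and its log2 difference was -0.57 ± 0.16 (unadjusted p = 0.000773). Kcnd2, which carries A-type current, differed by -0.23 and Kcnk1, a leak channel, by -0.41. Over the 39 libraries 21 of the 37 were lower. Sodium and calcium channels held 1 of 28 (3.57%), Scn8a at -0.21.

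Signalling lists had members in both directions. Of 37 dopamine receptor and cAMP genes, 28 were lower (75.7%, beside 48.3% of all genes), and Pde4b, a cAMP phosphodiesterase, and Drd2 had an unadjusted p under 0.05 (Pde4b at -0.33), which is 5.41% of the list beside 8.14% of all genes. Without library 1575, 22 were lower and 1 was at that threshold, and without library 1590 none was. With 39 libraries, 15 of the 37 were lower. Here too the background of 48.3% takes in genes of all levels. Of 30 Ras and ERK genes, Rap1b, a small GTPase, was lower (-0.64 ± 0.20), while Rasgrp2, an exchange factor for Rap1, was higher (0.49). Gpsm1, a G protein regulator, was higher by 0.80. Among 26 neuropeptide genes Penk and the neuropeptide Y receptors Npy1r (-0.86) and Npy5r (-1.18) were lower and the cholecystokinin receptor Cckbr was higher (0.70, but -0.079 over the 39 libraries). Without library 1590, 1 of these genes was lower at that threshold. None of 23 BDNF and growth factor genes had an unadjusted p under 0.05, against 1 higher and 2 lower of 22 over the 39 libraries.

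Cdc42, a GTPase that drives actin assembly in spines, was lower in 24 of 27 cocaine libraries than the saline median and differed by -0.33 ± 0.10, with -0.40 at 24 h and -0.27 at 1 month. Mef2a, a transcription factor that limits excitatory synapse number, differed by -0.20. These were the 2 of 35 actin and spine genes at an unadjusted p under 0.05 (5.71%, beside 8.14% of all genes). Cdc42 was at -0.15 over the 39 libraries, where none of the list was lower and 1 was higher at that threshold. Presynaptic genes held 3 of 28 (10.7%), Syn1 (-0.31), Unc13c (-0.22) and Bsn (0.19). Without library 1575 these became 3 higher and 1 lower.

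Chromatin regulators gave 4 of 44 (9.09%, beside 8.14% of all genes), 2 in each direction. Without library 1575 they were 7, all higher. Dnmt1, the maintenance DNA methyltransferase, was at 63.2, 68.9, 82.7 and 69.2 CPM in saline libraries at 24 h and at 43.8, 63.8, 56.7, 78.7 and 73.6 CPM at 1 month. Its cocaine medians were 81.4 and 85.7 CPM, 24 of 27 cocaine libraries lay above the saline median, and the log2 difference was 0.43 ± 0.13 (unadjusted p = 0.00173). Hdac7 was higher by 1.40, and Tet2, which oxidises methylcytosine, and the histone methyltransferase Setdb1 differed by -0.30 and -0.40. Hdac7 stood at -0.38 over the 39 libraries, and Dnmt1 at 0.58.

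Nuclear genes of oxidative phosphorylation were lower in 58 of 74 cases (78.4%, beside 48.3% of all genes), with a list median of -0.087. At an unadjusted p under 0.05, 8 were lower and none higher (10.8% of the list, beside 4.04% of all genes lower). Of complex I these were Ndufa7 (-0.53 ± 0.17), Ndufs3 (-0.48) and Ndufb5 (-0.40), of complex III Uqcrc2 (-0.25) and Uqcrb (-0.39), and of complex IV Cox8a (-0.35), Cox6b1 (-0.40) and Cox6a1 (-0.33). Ndufa7 stood at 36.8, 34.1, 24.1 and 34.7 CPM in saline libraries at 24 h and at 52.3, 46.2, 20.3, 25.3 and 21.8 CPM at 1 month, with cocaine medians of 21.5 and 23.2 CPM. The list had 61 lower members without library 1575 (median -0.14), but 35 over the 39 libraries (median 0.0063). As given for the channels, genes above 10 CPM were lower at both times more often than all genes. Cytosolic ribosomal protein genes were split, 36 higher and 42 lower with 1 of 78 (1.28%) at that threshold. Over the 39 libraries 71 of those 78 were lower.

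The remaining lists also had few members at an unadjusted p under 0.05, where 8.14% of all genes were so. The shares were 15% for steroid-responsive and clock, 4% for nuclear receptor, 7.69% for cholesterol and 3.33% for lysosome genes. Steroid-responsive and clock genes held 3 of 20 (Klf9 at -0.29 and Npas2 at -0.26, both lower, and Tef at 0.20), and none without library 1590. Nuclear receptor genes held 1 of 25 (Esr1 at -1.57), cholesterol genes 2 of 26 (among them Scap, which escorts the sterol-sensing factor SREBP, at -0.39), and lysosome genes 1 of 30 (Atp6v1g2 at -0.23). Without library 1575 the last 2 lists held 1 higher, and 1 higher with 3 lower. None of 31 chaperone genes was below that value, although 1 higher and 2 lower were so without library 1575. None of 11 nuclear-retained long noncoding RNAs was, but 3 were lower over the 39 libraries, with a list median of -0.30.

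**Figure D2:**
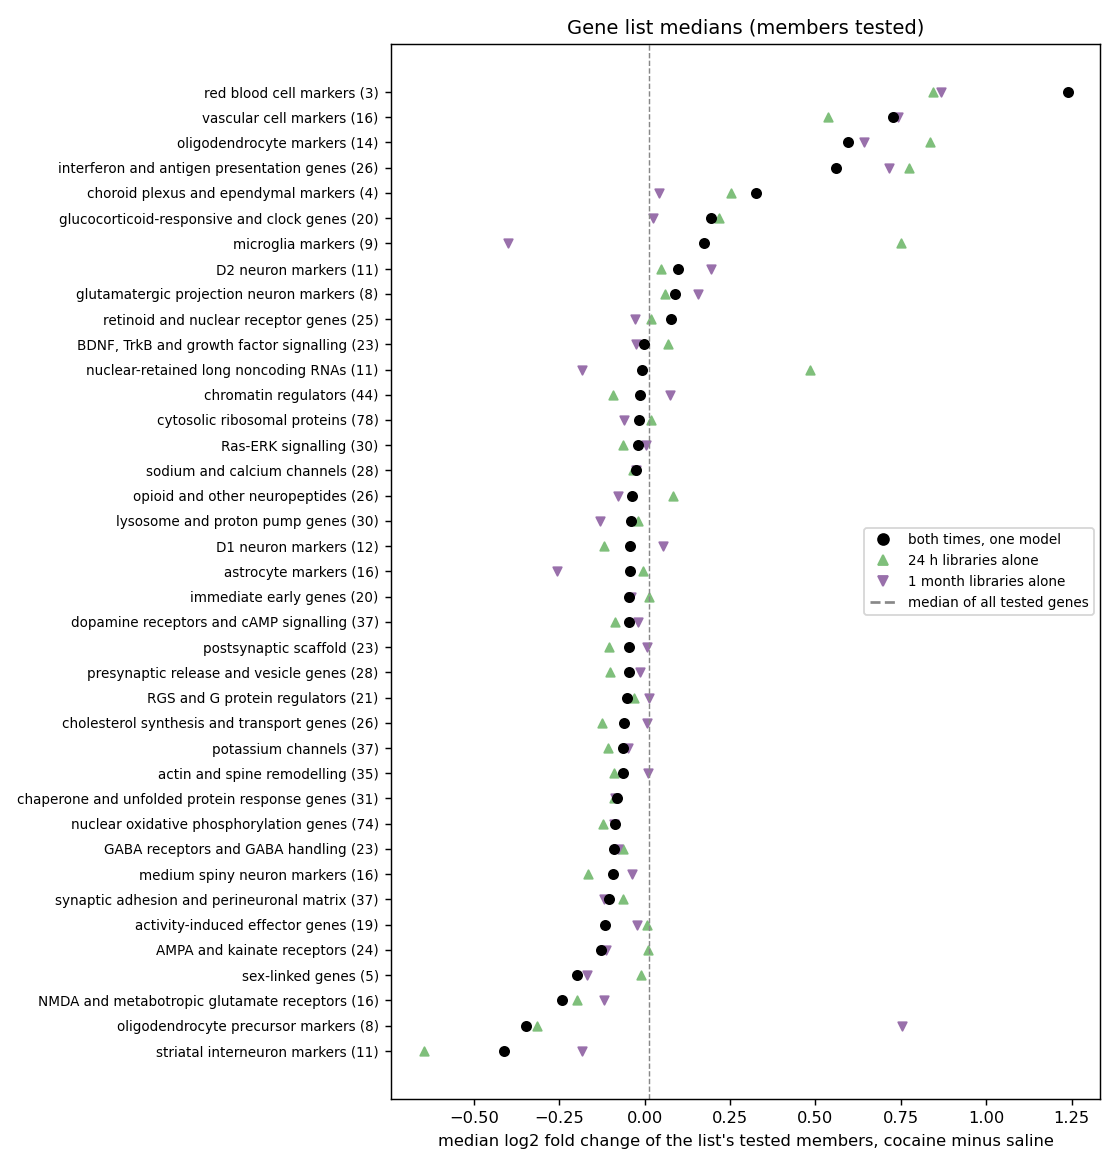
Median log2 difference, cocaine minus saline, of the tested members of 39 gene lists over both times (black circles), at 24 h alone (green triangles) and at 1 month alone (purple triangles); the dashed line is the median of all genes tested, 0.013. The highest median is that of 3 red blood cell markers (1.24), followed by vascular, oligodendrocyte and interferon lists between 0.56 and 0.73. The lowest are those of interneuron (-0.41), oligodendrocyte precursor (-0.35) and NMDA and metabotropic receptor genes (-0.24). The oligodendrocyte precursor median is 0.75 at 1 month alone.

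Several marker lists of cells other than the tagged neurons, and the interferon genes, were mostly higher in cocaine libraries. Of all 15410 genes tested 7965 were higher, and 4.11% were higher at an unadjusted p under 0.05. Other such lists were split, with 8 of 16 astrocyte, 5 of 9 microglia and 2 of 4 choroid plexus and ependymal markers higher. Their medians were -0.044, 0.175 and 0.327. Red blood cell markers were higher in 3 of 3 cases, with the highest median of all lists (1.24) and none at an unadjusted p under 0.05. Among them Hba-a2 and Alas2 were near 0, with saline medians of 0.088 and 0.333 CPM. Of 14 oligodendrocyte markers, 12 were higher with a median of 0.60. With the cocaine groups fitted apart that median was 0.76 for nonescalating and 0.080 for escalating libraries. Cnp, a myelin enzyme (0.70), Mal (0.95) and the lineage factor Sox10 (2.21 ± 0.92) had an unadjusted p under 0.05. Sox10 was at a low level, with a median of 0.189 CPM in saline libraries. Cnp was at 8.38, 28.5, 15.9 and 11.5 CPM in saline libraries at 24 h and at 14.8, 15.6, 12.1, 24.8 and 12.6 CPM at 1 month, and 25 of 27 cocaine libraries were above the saline median (cocaine medians of 22.4 and 20.6 CPM). Of 16 vascular markers, 14 were higher with a median of 0.73, and the endothelial genes Cdh5 (0.97 ± 0.44) and Kdr (0.75) were the 2 at an unadjusted p under 0.05, against 1 without library 1575 and none without library 1590. Of 26 interferon and antigen presentation genes, 22 were higher with a median of 0.56, and the interferon-induced Gbp7 (1.57 ± 0.56), Iigp1 (1.96), Igtp (2.06) and Ifit3 (2.22) had an unadjusted p under 0.05. With 39 libraries, the medians of the oligodendrocyte, vascular and interferon lists were -0.72, -0.22 and -0.32, so each turned direction with the 3 left-out libraries. Striatal interneuron markers went the other way, 8 of 11 lower with a median of -0.41 and none at an unadjusted p under 0.05, among them Sst, the somatostatin precursor (-0.58), and Nos1, the neuronal nitric oxide synthase (-0.41). Over the 39 libraries 3 of these 11 were lower at that threshold. Oligodendrocyte precursor markers were lower in 5 of 8 cases, with a median of -0.35 (-0.69 over the 39 libraries). That median was -0.32 at 24 h alone but 0.75 at 1 month alone. Their list level differed by only 0.001 (exact permutation p = 0.997).

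As levels, the mean log2 CPM of the oligodendrocyte markers was 1.80 ± 0.56 (SD, n = 27) in cocaine and 1.30 ± 0.47 (SD, n = 9) in saline libraries, a difference within times of 0.49 (exact permutation within times, two-sided p = 0.026, adjusted over 13 marker lists 0.229). Saline libraries ranged from 0.69 to 2.17 and cocaine libraries from 0.91 to 2.92. Red blood cell markers differed by 0.74 (exact permutation p = 0.0353, adjusted 0.229) and vascular markers by 0.46 (exact permutation p = 0.281, adjusted 0.609). Medium spiny neuron markers, shared by both neuron classes, stood at 9.46 ± 0.12 (SD, n = 27) and 9.56 ± 0.13 (SD, n = 9), a difference of -0.091 (exact permutation p = 0.053, adjusted 0.230). In their gene list 14 of 16 were lower, where 48.3% of all genes were. That background takes in genes of all levels, and genes of higher level leaned lower, as given for the channels. At an unadjusted p under 0.05, 2 of the 16 were lower, where 4.04% of all genes were. Arpp19 (-0.25), a phosphatase inhibitor regulated by cAMP, was among these 2. Without library 1575, 11 of the 16 were lower, 3 of them at that threshold. Without library 1590, 12 were lower, 1 of them at that threshold. With 39 libraries, 9 of the 16 were lower and none was at that threshold. None of the 13 marker lists passed. With the oligodendrocyte marker level as a covariate, chosen after the data were seen, the log2 difference was -0.77 for Hat1, -0.60 for Slitrk4, -0.32 for Sod1 and 0.63 for Ctdspl. With the vascular marker level it was -0.89 for Hat1, -0.60 for Slitrk4, -0.35 for Sod1 and 0.56 for Ctdspl. With the astrocyte marker level it was -0.94 for Hat1, -0.655 for Slitrk4, -0.35 for Sod1 and 0.56 for Ctdspl. With the share of reads outside features it was -0.93 for Hat1, -0.55 for Slitrk4, -0.34 for Sod1 and 0.57 for Ctdspl. These marker levels come from the same libraries, and the part of other cells in the differences of these or other genes was not tested.

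**Figure D3:**
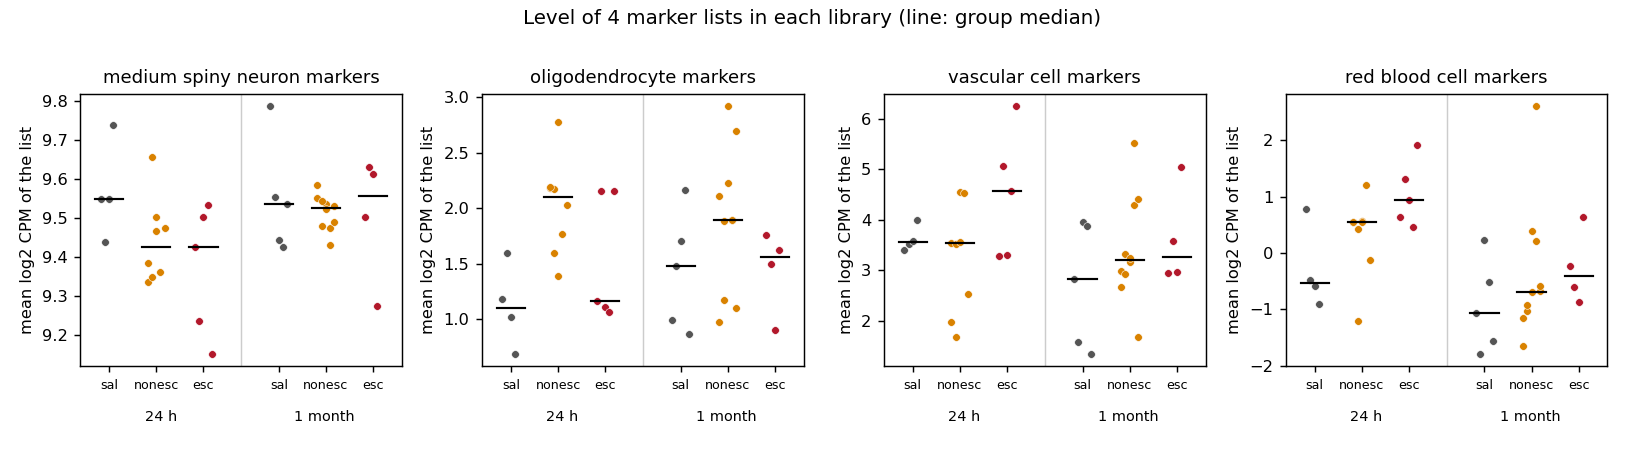
Mean log2 CPM of 4 marker lists in each of the 36 libraries by group (sal, saline; nonesc, nonescalating; esc, escalating) at 24 h and 1 month; points are libraries and lines group medians. Cocaine and saline libraries overlap in every panel, oligodendrocyte markers span 0.69 to 2.17 in saline and 0.91 to 2.92 in cocaine libraries, and vascular markers reach 6.25 in 1 escalating library at 24 h.

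Agreement between the times was weak across genes. Fitted alone, 24 h gave 0% and 1 month 0% of genes at an adjusted p under 0.05, and 1146 of 14330 (8.0%) and 710 of 13728 (5.17%) at an unadjusted p under 0.05. The log2 differences at the 2 times, which rest on separate libraries, had a Pearson r of 0.122 and a Spearman rho of 0.0974 across 13536 genes, which share libraries within a time and are not independent replicates. They had the same sign in 53.4%. Of these 13536 genes, 1030 had an unadjusted p under 0.05 at 24 h and 691 at 1 month. At both times there were 64 such genes, of which 44 (68.8%) had the same sign, 24 lower and 20 higher. Whether 64 is more than would meet both by chance was not tested.

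The 24 genes lower at both times included Hat1, Slitrk4, Sod1, Car12, Dctd and Cdc42 above, and several other genes of neurons. Fgf14, a sodium channel partner, differed by -0.43 at 24 h and -0.46 at 1 month, with mean levels of 138 CPM in saline and 102 CPM in cocaine libraries. Mapk10, the neuronal JNK kinase, differed by -0.36 and -0.26 (652 and 527 CPM), Stxbp5l, a regulator of vesicle fusion, by -0.42 and -0.41 (439 and 330 CPM), and Stmn2, a neuronal microtubule regulator, by -0.56 and -0.37 (111 and 81.1 CPM). Pkia, the protein kinase A inhibitor alpha, differed by -0.47 and -0.33. Of the 20 higher genes, Ctdspl, Ddx17, an RNA helicase (0.48 and 0.36), and Epha6, an ephrin receptor (0.81 and 0.51), had mean saline levels above 30 CPM.

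**Figure D4:**
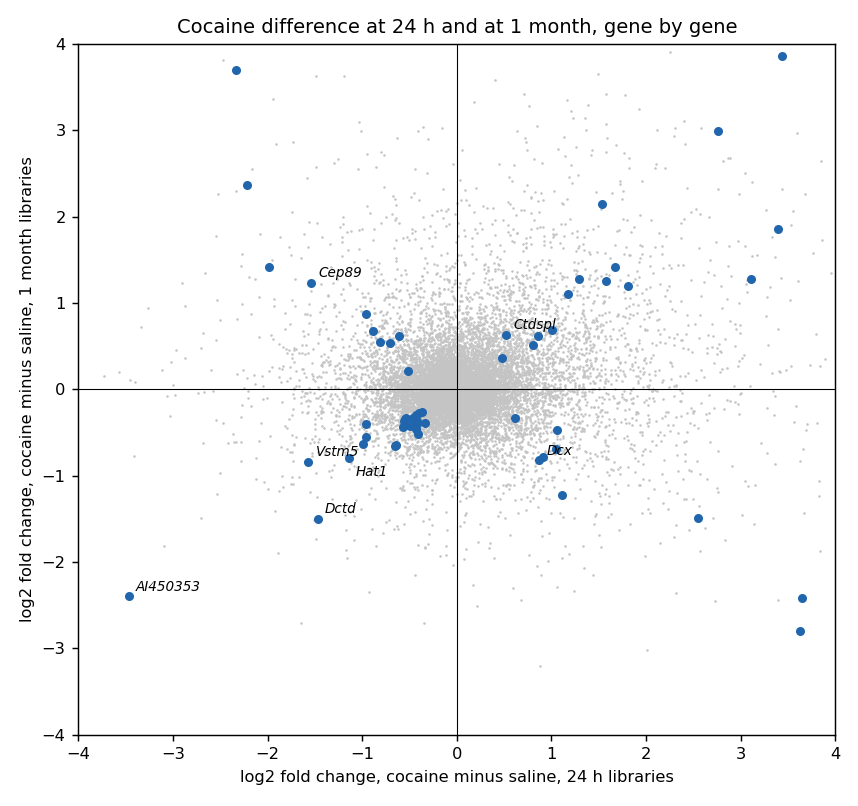
Log2 difference, cocaine minus saline, of each gene at 24 h (x axis) against 1 month (y axis), for the 13474 genes within the axes; blue points are the 58 plotted genes of the 64 at an unadjusted p under 0.05 at both times. Blue points lie in all quadrants, with Hat1 and Dctd lower at both times, Ctdspl higher at both, and Dcx and Cep89 in opposite directions.

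No gene's difference changed between the times at an adjusted p under 0.05 (0%), and 1030 had an unadjusted p under 0.05 (6.68%). DESeq2 called 5 for this change. The smallest p belonged to Dcx, the doublecortin of young neurons, at 15.7, 27.7, 58.3 and 26.7 CPM in saline libraries at 24 h and 124, 65.3, 50.1, 43.7 and 76.0 CPM at 1 month. Cocaine medians of Dcx were 55.6 and 38.0 CPM, so its difference was 0.87 at 24 h and -0.82 at 1 month, a change of -1.69 ± 0.39 (unadjusted p = 8.72e-05, adjusted p = 0.498, edgeR). The saline median was 27.2 CPM at 24 h and 65.3 CPM at 1 month.

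Saline and cocaine libraries did not overlap in 11 genes at 24 h (0.0714% of those tested) and in 5 at 1 month (0.0324%), and none did so at both. The 5 were chosen after their values were seen, and whether 11 or 5 is more than chance would give was not tested. Plcxd3 (34.3 CPM mean in saline, 21.0 CPM in cocaine) and Spc24, a kinetochore protein (7.79 and 3.46 CPM), were lower. Sidt2, a lysosomal membrane protein (25.4 and 34.6 CPM), Traf2, an adaptor of tumour necrosis factor receptors (1.42 and 4.08 CPM), and Rmnd5b (35.5 and 39.9 CPM) were higher. Plcxd3 was lower by 0.64 at 24 h too, while Sidt2 and Rmnd5b stood at -0.12 and -0.41 there.

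Escalating and nonescalating libraries were also fitted apart, against the same saline libraries. The lead genes had been chosen in a fit that holds both groups, so their shared direction is given as a description. For Hat1 the log2 differences were -0.88 ± 0.26 for escalating and -0.996 ± 0.22 for nonescalating, for Slitrk4 -0.75 ± 0.18 and -0.61 ± 0.15, for Sod1 -0.39 ± 0.11 and -0.35 ± 0.09, and for Ctdspl 0.67 ± 0.19 and 0.54 ± 0.16. Between the cocaine groups themselves no gene passed an adjusted p of 0.05 (0%), and 823 (5.34%) had an unadjusted p under 0.05. Gbp7 stood at 2.27 ± 0.61 for escalating and 0.999 ± 0.54 for nonescalating, with an unadjusted p of 0.016 for the difference. The interferon list median was 1.25 for escalating and 0.074 for nonescalating. In the same order the medians were 1.12 and 0.36 for vascular markers and 0.080 and 0.76 for oligodendrocyte markers.

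The error of these comparisons sets what could be seen. The distance from a gene's log2 difference to either end of its 95% confidence interval had a median of 0.626 over all genes tested, 0.379 over the 8451 genes at a mean of 10 CPM or more and 0.233 over the 2094 genes at 100 CPM or more. A gene of low level would thus need a larger difference to stand clear of 0. The labels do not say whether each library is a separate animal, so the p-values measure the spread between libraries, which may in part be technical.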

How the data were processed

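Ribosome-bound RNA was sequenced by the authors, aligned with STAR 2.0.0e to mm10 and counted with HTSeq, per the submitters' processing notes. For HTSeq the version, gene models and handling of strand are not given here, so reads of overlapping or antisense genes may not be separated. The deposited values are raw read counts for 32531 gene symbols, with 5 summary lines and 1 row naming no gene left out here. Genes encoded by mitochondria were not analysed here.

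Counts were tested with edgeR 4.0.16 (R 4.3.3) by the quasi-likelihood F-test with robust dispersion, TMM scaling, a minimum count of 10 over groups of time and drug, and Benjamini-Hochberg adjustment, in an additive model of drug and time over 36 libraries. The 24 h and 1 month libraries were also fitted alone, the change with time as an interaction, and escalating and nonescalating libraries in a model with 3 drug levels. CPM values use the TMM-scaled library size, and a gene's level in a marker list adds a prior count of 2. Marker levels were compared by exact permutation within times (27674640 arrangements). Limma 3.58.1 (voom) and DESeq2 1.42.0 were alternatives. The fit was tested on simulated data. The 105 genes named by rule were the 20 of smallest p, up to 2 of each of 40 lists, the 5 of smallest interaction p and 8 fixed genes, and further list members at an unadjusted p under 0.05 are also given, save a few genes that are not reported here. The members of the comparison and the lists were chosen with earlier results of these data known. Gene positions come from GENCODE vM21 on GRCm38, the mm10 build, where 100 of the 105 had a single model.

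Libraries of a group were compared in 105 pairs, and their chi-square per gene ran from 12.8 to 213, so none was counted as a duplicate. The labels do not say whether replicate numbers pair the libraries. In 22 pairs with the same number, correlations of deviations ran from -0.0994 to 0.221, 9 of them over 0.1. Among 100 pairs with other numbers 22 were over 0.1. Libraries are named by the number in their label. Intervals at the 95% level cover the spread between libraries.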

Additional observations from a re-analysis of the deposited data

Results flagged for a closer look

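In 240 sets of 4 to 10 libraries, one set for each lead gene, fixed gene or marker list in each group, 21 had a highest or lowest library set apart from the others by Dixon's test, where 12 would be expected by chance. Of these 14 were high and 7 were low.

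Among the lower genes, Hat1 was at 11.2 CPM in escalating library 1609 at 1 month, where the nearest of its group was at 25.4 CPM. Sod1 was at 663 CPM in saline library 1590 against 418 CPM for the next. AI450353 was at 34.8 CPM in saline library 1575 against 0.661 CPM for the next. Dctd was low in nonescalating library 1605 (0.346 CPM) and Ogfod3 in escalating library 1587 (0.237 CPM). Sparse transcripts were set apart by a few reads: AK154190 in library 1600 (0.733 CPM), 4930469G21Rik in library 1587 (0.475 CPM), and Eid3 in libraries 1586 (1.13 CPM) and 1599 (0.566 CPM).

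Among the higher transcripts, Gm12504 was set apart in 4 groups, at 0.0833 CPM in saline library 1572, 7.22 CPM in library 1583, 1.86 CPM in library 1589 and 4.58 CPM in library 1609. AK135648 was at 0.421 CPM in library 1606 and Slco2a1 at 14.2 CPM in library 1604, where the next library was at 0.977 CPM. Library 1604 also had the highest red blood cell marker level of its group, 2.60 on the log2 scale against 0.389.

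Of the fixed genes, Drd1 was low in nonescalating library 1581 (361 CPM, next 482 CPM), Drd2 in nonescalating library 1577 (15.7 CPM, next 44.4 CPM) and Fosb in nonescalating library 1576 (14.9 CPM, next 32.1 CPM). Penk was high in escalating library 1585 (630 CPM, next 405 CPM). Drd2-class markers were low in escalating library 1588 (3.43 on the log2 scale, next 4.25).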

How the results depend on the processing

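DESeq2 called 23 genes between cocaine and saline (15 higher and 8 lower) and 5 for the change with time, limma voom called 1 (Hat1, adjusted p = 0.0308), and edgeR with no filter on low counts called 18, all lower, among them Hat1, Slitrk4, Car12 and Atxn7l1. With saline 1573 and 1574 and nonescalating 1582 put back 1 gene passed, and with all 40 libraries 1 gene passed, A930011O12Rik in both (adjusted p = 0.0112 and 0.00803). The count stayed at 0 under DESeq2 size factors, total counts without TMM, a minimum count of 30, without Rn45s, no time term, equal weight for the cocaine groups, either cocaine group alone, vascular, astrocyte and outside-feature covariates, and, chosen after seeing the data, an oligodendrocyte covariate and counts thinned to a common depth. The causes of these differences were not tested. Over all settings that leave out no single library, 1980 of 2046 values kept their direction and side of the threshold, 50 turned direction and 16 passed the threshold.

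With the 3 libraries put back, and with all 40, the log2 difference turned for Drd1 (0.053 and 0.039), Tac1 (0.13 and 0.12), Cnp (-0.017 and -0.013), Sox10 (-0.69 and -0.67), Pdgfra (-1.46 and -1.45), C1qc (-1.94 and -1.93), Cdh5 (-0.14 and -0.14), Kdr (-0.042 and -0.040), Cckbr (-0.079 and -0.077), Hdac7 (-0.38 and -0.38), Iigp1 (-1.13 and -1.13) and Rian (-0.012 and -0.012). With the 3 put back, marker level differences turned for Drd1-class (0.116), medium spiny neuron (0.0592), oligodendrocyte (-0.0415), oligodendrocyte precursor (-0.163) and microglia markers (-0.1505), and list medians moved by more than the spread between libraries for astrocyte (-0.85), oligodendrocyte (-0.721), microglia (-0.761) and actin genes (0.00252). Of 39 list medians 15 turned sign, among them glutamatergic (-0.175), choroid plexus (-0.132), dopamine and cAMP (0.0311), GABA (0.0472), chaperone (0.0369) and nuclear receptor genes (-0.0392). A prior count of 0.5 turned the level differences of glutamatergic (0.0219), astrocyte (0.0561) and sex-linked genes (0.0526).

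Directions turned at 24 h alone for Tac1 (0.019), Grip1 (0.23), Nr3c1 (0.018) and Dcx (0.87), with a nuclear RNA list median of 0.485. They turned at 1 month alone for Arc (-0.041), Cux2 (0.24), C1qb (0.14), Kl (0.41), Gna11 (0.067), Cep89 (1.24) and Tuba4a (0.22), with list medians of 0.753 for oligodendrocyte precursor and 0.00895 for actin genes. Under limma voom they turned for Fezf2 (0.50), C1qb (0.59), Eif2s3y (0.017), Cep89 (0.12) and Plau (0.43). Nonescalating libraries alone turned Cep89 (0.0071), escalating libraries alone Tac1 (0.0036) and Uty (0.029), the vascular covariate Neat1 (-0.23), and the outside-feature covariate Tac1 (0.0085) and Neat1 (-0.12).

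With the replicate block 0 genes passed and 781 had an unadjusted p under 0.05. Without the block 1255 did, where 770 would be expected by chance. The block turned C1qb (0.62), Kl (0.18), Cep89 (0.25) and Plau (1.97). The labels do not say what same-numbered libraries share. In 22 such pairs the median correlation was 0.0308, with 9 of them over 0.1. In 100 pairs with other numbers the median was -0.0162, with 22 over 0.1.

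Leaving out each library in turn called 0 genes in every case, with 1081 (without 1590) to 1603 (without 1572) genes at an unadjusted p under 0.05, and 9 of 3593 values turned. Ranges were -0.17 to 0.0086 for Tac1, -1.14 to 0.22 for Fezf2, -0.97 to 0.89 for C1qb, -0.55 to 0.45 for Kl, -0.29 to 0.033 for Eif2s3y, -0.34 to 0.067 for Dcx, -0.54 to 0.011 for Cep89 and -3.79 to 3.03 for Plau. The median of all genes moved from 0.013 to 0.057 on total counts.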

Other observations

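Genes with an unadjusted p under 0.05 at both times included several of low level in saline libraries that are not named above. Gja4, the connexin of arterial endothelium, had a mean of 0.114 CPM in saline and 2.54 CPM in cocaine libraries. Kcp, a secreted regulator of BMP signalling, had means of 1.02 and 7.60 CPM, Tmem88b 3.595 and 13.5 CPM, and Atp10d, a lipid flippase, 2.17 and 12.2 CPM. Rapgef3, the cAMP-activated exchange factor for Rap1, had means of 4.58 and 13.3 CPM, with log2 differences of 1.67 at 24 h and 1.42 at 1 month. Pxn, the focal adhesion adaptor paxillin, had means of 3.57 and 10.1 CPM. Rbm12b1 (5.74 and 12.6 CPM) and Rfx1, a transcription factor (8.93 and 15.97 CPM), were called by DESeq2, as were Gja4 and Kcp. No gene of this group passed edgeR's adjusted threshold, and vascular marker genes were at the same time higher in 14 of 16 cases, whose part in these values was not tested.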
